A study of Sus scrofa domesticus with 28 samples.

Results

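SCD, SQLE, DGAT2 and PLIN2 encode proteins that build or store the lipids of sebum and fat. They were 4 of the 18768 features tested, of which 2646 carried a gene symbol, and were found by matching the transcript accession of each probe to the RefSeq pig gene. The array held 15 probes for them, 9 for SCD, 3 for SQLE, 2 for DGAT2 and 1 for PLIN2, and all 15 passed the filter on dim probes. The brightest probe stood for each gene and was well above background on 28 of 28 arrays for SCD, SQLE and PLIN2 and on 27 for DGAT2. It was saturated on 0 arrays.

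All biopsies were taken from 2 animals, 49 and 50, which were juvenile male swine of the red Duroc breed, used as a model of raised, hypertrophic scars. Each of 28 skin biopsies was set against the same universal pig reference RNA on an Agilent 2-colour array, with the biopsy in Cy5, the reference in Cy3 and no dye swap. Between 31.4 and 55.7% of the probes of an array had Cy5 signal well above background, and the number of arrays limits the precision. The share was 44.9 to 55.4% in early scar and 31.4 to 47.1% in late scar. Comparisons of late with early scar thus set mostly dimmer against brighter arrays. The groups were as follows. Early scar under sham treatment gave 4 hyperpigmented ("hyper") and 4 hypopigmented ("hypo") biopsies. Mid scar and late scar each gave 2 biopsies for pressure hyper, pressure hypo, sham hyper and sham hypo. Control skin gave 4 biopsies. In mid and late scar every pressure biopsy lay on side R and every sham biopsy on side L, so pressure and side cannot be told apart. Hyper and hypo biopsies also carry different codes in their titles, with no stated meaning, and pigmentation cannot be told apart from what the codes mark.

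Sebaceous glands open into the hair follicle, and their cells fill with lipid droplets and then burst to release sebum, a mix of triglycerides, wax esters, squalene and cholesterol esters. Stearoyl-CoA desaturase, SCD, puts a double bond into saturated fatty acids, and mice that lack its skin form have shrunken sebaceous glands. SQLE, squalene epoxidase, is the step by which squalene is turned towards cholesterol. DGAT2 joins the last fatty acid to make a triglyceride, and PLIN2 coats the droplets in which triglycerides and sterol esters are kept. None of the 4 belongs to sebaceous cells alone, since adipocytes, keratinocytes and macrophages use them too. In a whole biopsy, fewer cells of a type and less RNA per cell cannot be told apart.

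All 4 genes were lower in scar than in control skin at each phase, SCD by the most. The differences of SCD and SQLE were most negative in late scar, PLIN2 was still called lower there, and DGAT2 was higher in late than in early scar under sham treatment. No difference between hyper and hypo scar or between pressure and sham scar passed the test for any of the 4. Levels are given as the log2 ratio of biopsy to reference, in which 1 unit is a doubling. Differences are log2 differences ± SE from a model fitted with limma to all 28 arrays with the animal as a block, and p values are adjusted by Benjamini-Hochberg over all features, with a threshold of 0.05. Since there were 2 animals, these p values reflect how much biopsies of the same pigs vary, not how much pigs vary.

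The level of SCD in early scar lay between -0.18 and 0.60 with a median of 0.18 over 8 arrays. In mid scar it lay between 0.02 and 1.03 with a median of 0.47, and in late scar between -0.92 and 1.02 with a median of -0.06. In control skin the 4 arrays read 3.38, 4.17, 3.39 and 3.18. Every one of the 24 scar arrays was thus below the lowest control array, by more than 2 log2 units. For this and the separations from control arrays given below, the share of all features that separate so was not counted. The difference was -3.32 ± 0.19 in early scar (10-fold lower, limma adjusted p = 3.02e-10), -3.03 ± 0.19 in mid scar (8.15-fold lower, adjusted p = 1.36e-09) and -3.68 ± 0.19 in late scar (12.8-fold lower, adjusted p = 6.11e-11). For comparison, 14.8% of all features were called lower in early scar, 11.7% in mid scar and 13.4% in late scar. SCD stood far into that tail: 0.197% of features had a lower difference in early scar, 0.218% in mid scar and 0.128% in late scar.

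All 9 SCD probes gave a lower level in scar. Their differences in early scar ran from -3.40 to -1.25, and the smallest came from a dim probe that was well above background on 6 arrays. In late scar they ran from -3.92 to -1.39.

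SQLE had a level between -1.26 and 0.25 in early scar, with a median of -0.20. Its range was -1.06 to -0.11 in mid scar (median -0.34) and -1.47 to -0.23 in late scar (median -0.83). The 4 control arrays read 1.30, 1.25, 1.33 and 0.69. No scar array reached the lowest control array, and the late phase held the lowest values. The difference was -1.50 ± 0.23 in early scar (2.84-fold lower, limma adjusted p = 4.67e-05), -1.53 ± 0.23 in mid scar (2.88-fold lower, adjusted p = 9.08e-05) and -2.01 ± 0.23 in late scar (4.04-fold lower, adjusted p = 3.36e-06). In animal 50 alone the early and mid differences kept their sign, at -1.29 and -1.34, but were not called. A second bright probe gave -1.37 in early and -1.86 in late scar, and a dim probe, well above background on 7 arrays, gave -0.79 and -0.84 for the same comparisons.

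DGAT2 varied most among scar biopsies. Its level lay between -2.04 and -0.19 in early scar (median -1.17), between -1.68 and 1.87 in mid scar (median -0.16) and between -1.36 and 1.79 in late scar (median 0.24). Control arrays read 1.09, 1.78, 0.88 and 1.79. All 8 early arrays were below the lowest control array, against 6 of 8 in mid scar and 6 of 8 in late scar, so the later phases overlapped control skin. The array with -1.36, late pressure hypo of animal 50, was the only one on which DGAT2 was not well above background. The difference was -2.54 ± 0.37 in early scar (5.80-fold lower, limma adjusted p = 2.57e-05), -1.46 ± 0.37 in mid scar (2.74-fold lower, adjusted p = 0.00534) and -1.18 ± 0.37 in late scar (2.26-fold lower, adjusted p = 0.0157).

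The late call for DGAT2 was lost in animal 49 alone, without 1 control array, with no replicate block (-1.18, limma adjusted p = 0.0699) and with the slide as a fixed block (-0.84, adjusted p = 0.174), which also ended the mid call (-1.15, adjusted p = 0.115). In late scar the mean level was 1.02 in animal 49, with a range of 0.35 to 1.79, and -0.61 in animal 50, with a range of -1.36 to 0.14, and animal 49 was higher in 4 of 4 matched pairs. In control skin the animal means were 1.43 in animal 49 and 1.34 in animal 50. Fitted alone, animal 49 gave -0.41 for late scar against control skin and animal 50 gave -1.94. Without control array R of animal 50 the late difference was -0.86 (adjusted p = 0.0879). The second DGAT2 probe gave a smaller difference throughout, -1.49 ± 0.30 in early scar (limma adjusted p = 0.000595) and -0.68 ± 0.30 in late scar (adjusted p = 0.0749).

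PLIN2, the droplet coat protein, showed the narrowest spread in control skin, at 1.73, 1.65, 2.13 and 1.69. Its level was -0.18 to 0.95 in early scar (median 0.38), 0.25 to 1.06 in mid scar (median 0.42) and 0.12 to 1.30 in late scar (median 0.58). All 24 scar arrays were below the lowest control array. The difference was -1.46 ± 0.21 in early scar (2.75-fold lower, limma adjusted p = 1.71e-05), -1.24 ± 0.21 in mid scar (2.37-fold lower, adjusted p = 0.000195) and -1.18 ± 0.21 in late scar (2.27-fold lower, adjusted p = 0.000165).

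**Figure D1:**
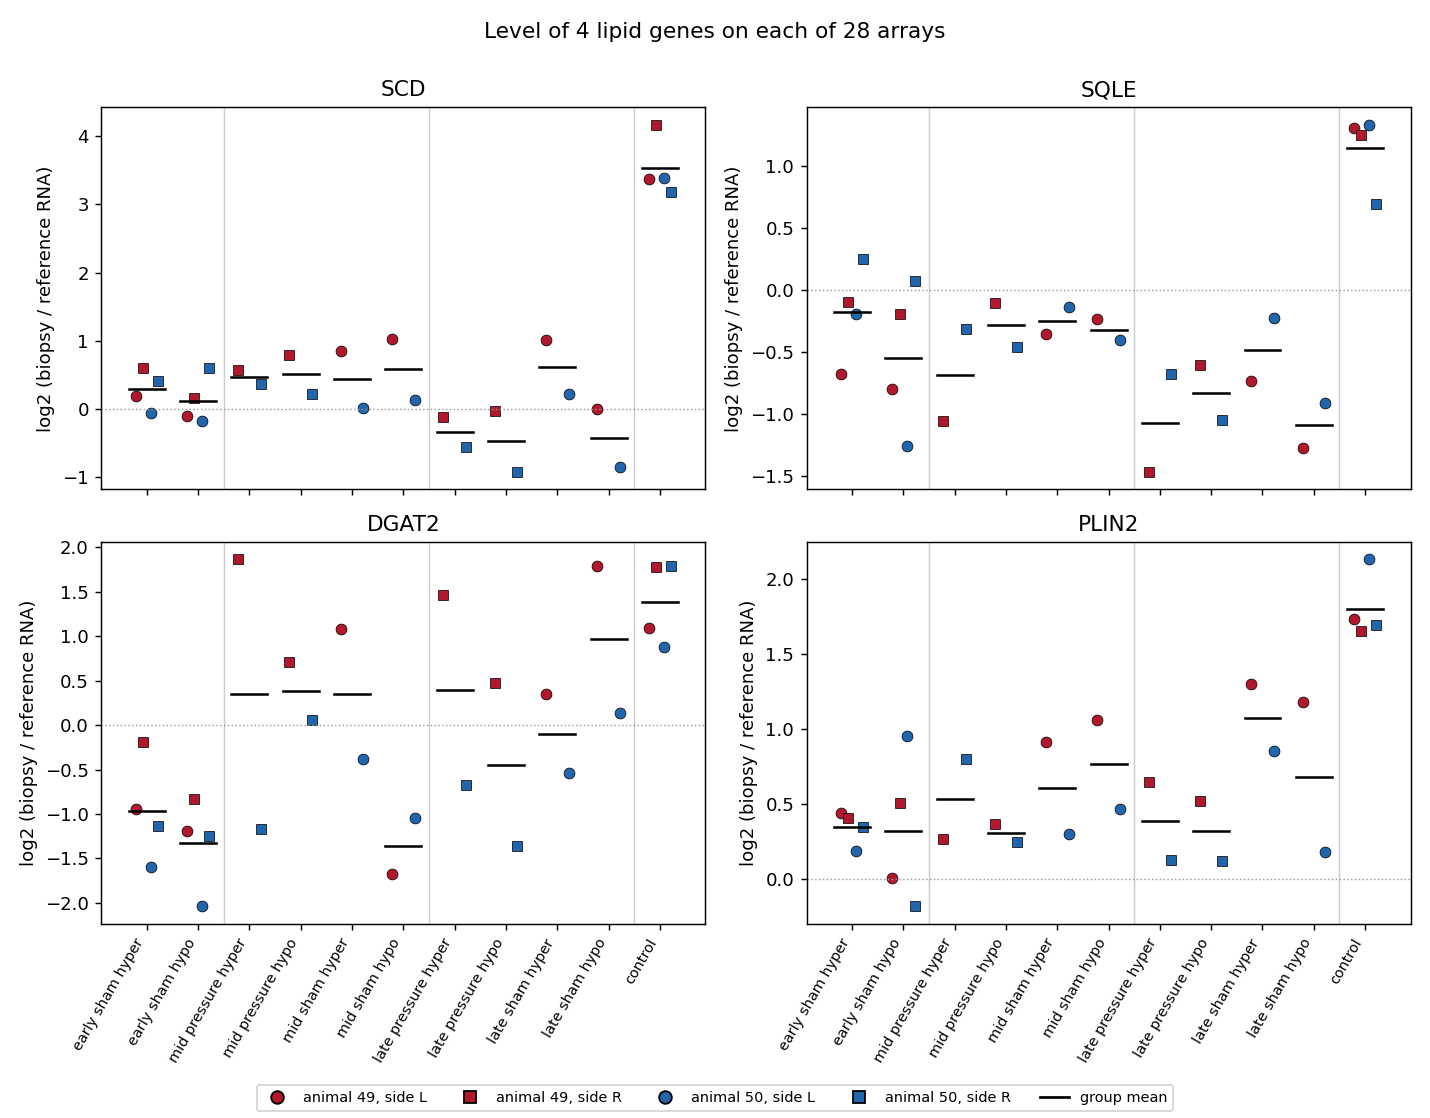
Log2 ratio of biopsy to reference RNA (vertical axis) for SCD, SQLE, DGAT2 and PLIN2 on each of 28 arrays, by group (horizontal axis); colour marks the animal, shape the side, and black lines the group means. All 24 scar arrays lie below the 4 control arrays for SCD, SQLE and PLIN2, while for DGAT2 2 mid and 2 late arrays, all of animal 49, reach the control range. The share of all features that separate so was not counted.

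**Figure D2:**
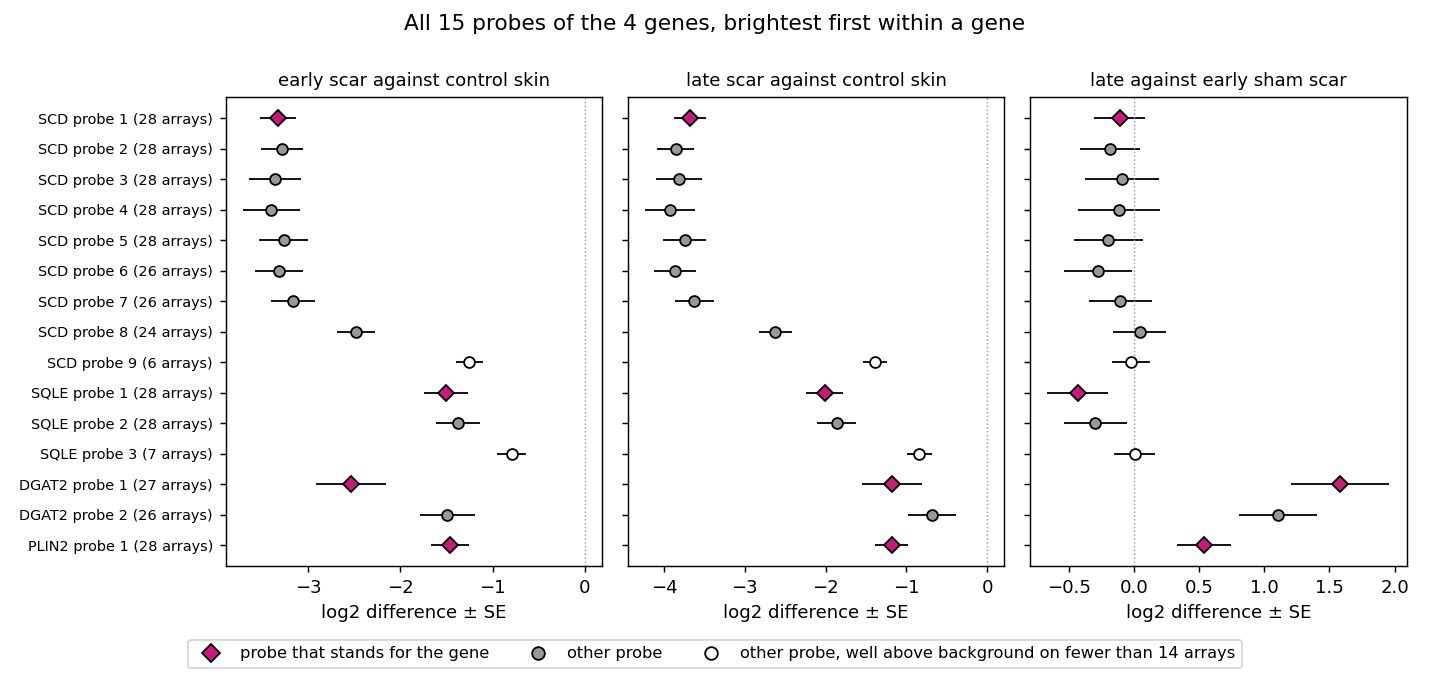
Log2 difference ± SE (horizontal axis) of all 15 probes of the 4 genes, brightest first within a gene, in early and late scar against control skin and in late against early sham scar; the number of arrays with the probe well above background is beside its name. Each probe lies below 0 in both scar comparisons, with the smallest SCD and SQLE differences from the dim probes seen on 6 and 7 arrays, and both DGAT2 probes lie above 0 in late against early sham scar.

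The next comparison asked whether any of the loss was regained between early and late scar, using sham biopsies alone. DGAT2 was higher in late sham scar, at 0.35 and -0.54 in hyper and 1.79 and 0.14 in hypo biopsies, against -0.94, -0.19, -1.60 and -1.14 in hyper and -1.19, -0.83, -2.04 and -1.25 in hypo biopsies of early scar. The groups overlapped only through the late value of -0.54, which was below the highest early value of -0.19. The difference was 1.59 ± 0.37 (3.0-fold, 95% interval 0.81 to 2.36, limma adjusted p = 0.0069), in a comparison in which 9.65% of features were called higher and 19.9% called in either direction. The second DGAT2 probe gave 1.11 ± 0.30 (adjusted p = 0.0156). In animal 49 alone the difference was 1.86, and in animal 50 alone, where it was not called, it was 1.31. The call was also lost without the cap on local background (0.98, adjusted p = 0.306), with median centring in place of loess (0.96, adjusted p = 0.058) and with the slide as a fixed block (1.67, adjusted p = 0.0788).

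For PLIN2 the late sham values were 1.30 and 0.85 in hyper and 1.18 and 0.18 in hypo biopsies, against 0.44, 0.41, 0.19 and 0.35 in hyper and 0.01, 0.51, 0.95 and -0.18 in hypo biopsies of early scar. The difference of 0.54 ± 0.21 did not pass the threshold (95% interval 0.11 to 0.97, limma adjusted p = 0.0656). It passed without the early hypo array L of animal 50 (0.67, limma adjusted p = 0.0139). It was 0.89 in animal 49 alone and 0.76 without the late sham hypo array L of animal 50. SCD and SQLE gave no call of regain. The late minus early sham difference was -0.11 ± 0.19 for SCD (95% interval -0.51 to 0.30, adjusted p = 0.728) and -0.43 ± 0.23 for SQLE (-0.91 to 0.06, adjusted p = 0.192). With median centring in place of loess, which moved the median of all features in this comparison to -0.18, both were called lower in late scar, SCD at -0.88 (adjusted p = 0.0468) and SQLE at -1.01 (adjusted p = 0.0181). Whether the change of DGAT2 differs from that of SCD or SQLE was not tested, and the intervals above stand side by side.

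Split by pigmentation, the late minus early sham difference of DGAT2 was 0.87 ± 0.52 in hyper scar (limma adjusted p = 0.455) and 2.30 ± 0.52 in hypo scar (4.91-fold, adjusted p = 0.00831). The hypo call was lost without the late sham hypo array of animal 49 (1.95) and in animal 50 alone (1.79). It was also lost without the cap on local background (1.75, limma adjusted p = 0.196), with median centring (1.29, adjusted p = 0.072) and by the second probe (1.09, adjusted p = 0.0824). Of all features 0.107% were called in the hyper comparison and 17.9% in the hypo comparison. These counts moved widely with the arrays used: the hypo count of 3361 was 571 without the late sham hypo array of animal 50 and 1670 without that of animal 49, and the hyper count of 20 was 0 to 55 with single arrays left out and 1719 in animal 49 alone. The difference between these changes, hyper minus hypo, was -1.42 ± 0.74 and did not pass (limma adjusted p = 0.562). SCD, SQLE and PLIN2 passed in neither, with differences of 0.33, -0.31 and 0.73 in hyper scar and -0.55, -0.55 and 0.36 in hypo scar.

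Between neighbouring phases none of the 4 genes was called. Mid minus early sham differences were 0.31 ± 0.19 for SCD, 0.08 ± 0.23 for SQLE, 0.64 ± 0.37 for DGAT2 and 0.35 ± 0.21 for PLIN2, with 6.44% of features called in this comparison. That count of 1208 was 30 to 1787 with single arrays left out, the lowest without the mid sham hypo array of animal 49. Late minus mid differences over sham and pressure were -0.65 ± 0.16 for SCD (limma adjusted p = 0.235), -0.49 ± 0.19 for SQLE, 0.28 ± 0.30 for DGAT2 and 0.06 ± 0.17 for PLIN2, with 0.00533% of features called. In descending order the phase means were control, mid, early and late for SCD, control, early, mid and late for SQLE, and control, late, mid and early for both DGAT2 and PLIN2. In each order the step below control skin passed the test. These means of mid and late scar include pressure biopsies, whereas steps from early scar were tested in sham biopsies alone. Between neighbours in an order, neither these sham tests nor late against mid scar passed. Early scar against all mid or all late biopsies was not tested.

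**Figure D3:**
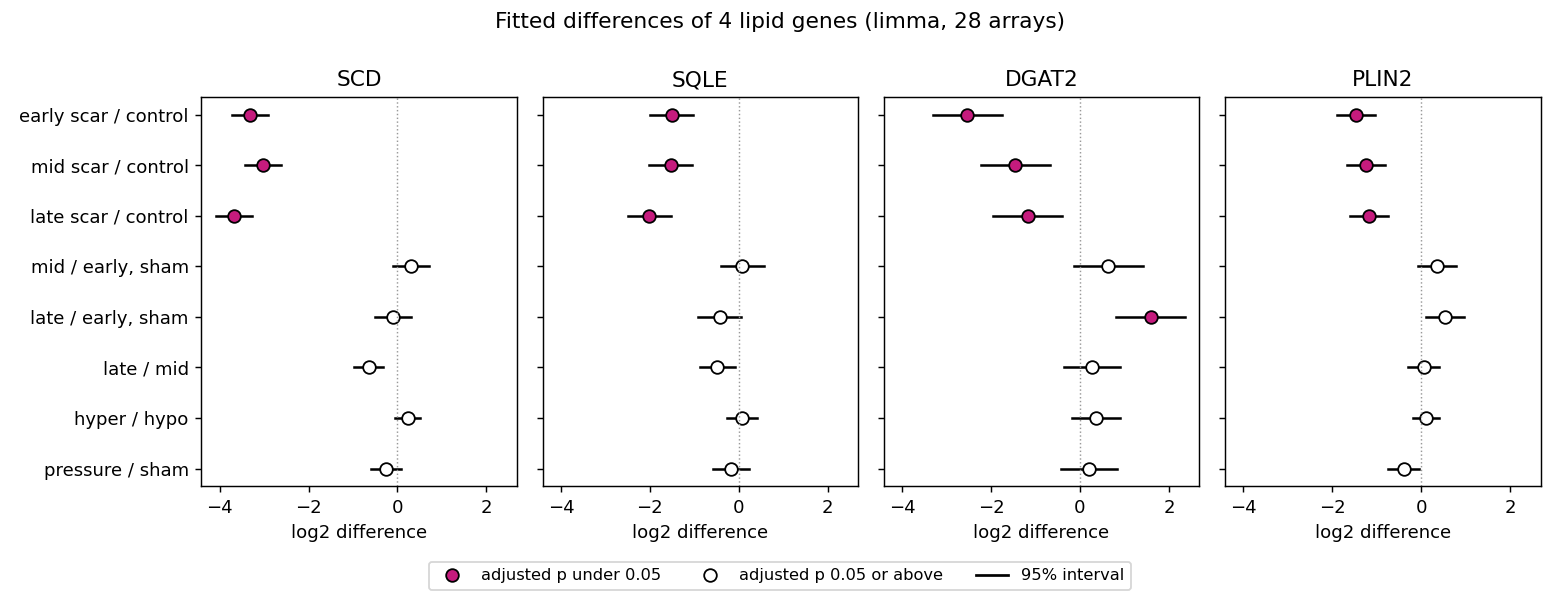
Fitted log2 differences (horizontal axis, points) with 95% intervals (lines) of the 4 genes in 8 comparisons (vertical axis), filled where the limma adjusted p is under 0.05. The 12 scar-to-control differences are all filled and below 0, and late against early sham scar is filled for DGAT2 alone, at 1.59.

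Dyspigmentation is the subject that the study's title names. Over the 3 phases, hyper minus hypo differences were 0.23 ± 0.13 for SCD (95% interval -0.05 to 0.51), 0.08 ± 0.16 for SQLE (-0.26 to 0.42), 0.37 ± 0.26 for DGAT2 (-0.17 to 0.90) and 0.11 ± 0.14 for PLIN2 (-0.19 to 0.41). None of the 4 passed (limma adjusted p = 0.999 for each), and 0.0107% of all features did. Within hyper scar and within hypo scar, each gene was lower than in control skin: SCD by 9.39-fold in hyper and 11-fold in hypo scar, SQLE by 3.20-fold in hyper and 3.38-fold in hypo scar, DGAT2 by 2.60-fold in hyper and 3.35-fold in hypo scar, and PLIN2 by 2.31-fold in hyper and 2.49-fold in hypo scar. In hyper scar the DGAT2 call was lost with the slide as a fixed block (-0.98, limma adjusted p = 0.154) and in animal 49 alone (-0.59). The SQLE call was lost in animal 50 alone (-1.28). In late scar, where 5.02% of features differed between hyper and hypo, SCD had a difference of 0.59 ± 0.22 (limma adjusted p = 0.132). That count of 942 features was 31 to 1480 with single arrays left out, the lowest without the late sham hyper array of animal 49. Its values were -0.11 and -0.56 in pressure hyper and 1.02 and 0.22 in sham hyper biopsies, against -0.02 and -0.92 in pressure hypo and 0.01 and -0.85 in sham hypo biopsies. The ranges overlapped, and the sham hyper biopsies held the highest values. In biopsies paired by animal, side and phase, hyper was higher in 7 of 12 pairs for SCD, 9 of 12 for SQLE, 9 of 12 for DGAT2 and 7 of 12 for PLIN2. For PLIN2 the hyper biopsy was higher in 4 of 4 late pairs, by 0.01 to 0.67, and for DGAT2 in 4 of 4 early pairs, by 0.11 to 0.64. In animal 49 alone the DGAT2 difference over all phases was 0.78.

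Pressure treatment gave no call. Over mid and late scar the pressure minus sham difference was -0.26 ± 0.16 for SCD (95% interval -0.59 to 0.07), -0.18 ± 0.19 for SQLE (-0.58 to 0.22), 0.21 ± 0.30 for DGAT2 (-0.42 to 0.84) and -0.39 ± 0.17 for PLIN2 (-0.74 to -0.04). The limma adjusted p was 0.905 to 0.966, and of all features 0% were called, though 959 had an unadjusted p under 0.05. PLIN2 in late scar read 0.65 and 0.13 in pressure hyper and 0.52 and 0.12 in pressure hypo biopsies, against 1.30 and 0.85 in sham hyper and 1.18 and 0.18 in sham hypo biopsies. The pressure biopsy was lower in 4 of 4 pairs of the same animal and pigmentation, and likewise in 4 of 4 late pairs for SCD. The late differences were -0.52 ± 0.24 for PLIN2 and -0.50 ± 0.22 for SCD (limma adjusted p = 0.868 for each). In animal 49 alone the PLIN2 difference over mid and late scar was -0.66. For DGAT2 in mid scar the values were 1.87 and -1.17 in pressure hyper and 0.71 and 0.06 in pressure hypo biopsies, against 1.08 and -0.38 in sham hyper and -1.68 and -1.05 in sham hypo biopsies. These ranges overlapped, and the difference of 0.88 ± 0.43 did not pass (limma adjusted p = 0.999).

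The 4 genes did not follow 1 pattern across arrays. Over the 28 arrays Pearson's r was 0.85 between SCD and SQLE, 0.81 between SCD and PLIN2, 0.56 between SQLE and PLIN2, 0.53 between SCD and DGAT2, 0.50 between DGAT2 and PLIN2 and 0.22 between SQLE and DGAT2. Within the 24 scar arrays it was 0.48, 0.42, -0.23, 0.17, 0.23 and -0.38 for the same pairs. The arrays share the reference RNA, 2 animals and 7 slides, and the control arrays set much of each value over 28 arrays. Among 2645 other named features, those most like SCD over 28 arrays were MSMO1 (r = 0.94), a sterol methyl oxidase of cholesterol synthesis, then the relaxin gene RLN2 and the peptide transporter SLC15A1, followed by PSORS1C2 and the hair keratin KRT31. SQLE was most like CYP51 and FDPS (r = 0.89 each), which act after and before it in cholesterol synthesis, and then the amino acid transporter SLC7A1, MSMO1 and SCD. For CYP51 and FDPS with SQLE r was still 0.75 and 0.72 within scar. For KRT31 and SCD it was -0.13, but KRT31 was well above background on 0, 0 and 1 of 8 early, mid and late arrays. For RLN2 these counts were 2, 0 and 0, and for SLC15A1 1, 1 and 1. The r of these 3 with SCD over 28 arrays thus rests on the control arrays, and within scar it cannot be judged. DGAT2 was most like FASN, the fatty acid synthase (r = 0.91), followed by aldolase ALDOC, catalase CAT, the oxidase DDO and the hormone-sensitive lipase LIPE, all with r of 0.83 to 0.90 within scar. PLIN2 was most like CFLAR, a regulator of caspases (r = 0.93), and PRDM1, a transcriptional repressor (r = 0.89), then RAB11A, TFAM and PAQR8.

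The genes around each member were described from lists of the pathway. Among all features 14.8% fell in early, 11.7% in mid and 13.4% in late scar, and 24.1%, 22.1% and 26.3% rose. Of squalene and cholesterol synthesis 10 genes were measured, and 6 fell in early, 8 in mid and 7 in late scar, with 0 higher. Their median difference was -1.02 in early, -0.96 in mid and -1.13 in late scar, against 0.11, 0.10 and 0.10 for all features. MSMO1 fell by 2.17 on the log2 scale in early scar (limma adjusted p = 2.55e-08) and by 2.27 in late scar (adjusted p = 1.66e-08). FDPS, which makes the precursor of squalene, fell by 1.72 in late scar (adjusted p = 4.48e-05). Of these 10, SQLE among them, 0 were called between late and early sham scar, against 19.9% of all features. With 10 genes, so small a count says little.

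SCD had the largest difference of the 8 measured genes of fatty acid synthesis and desaturation. FASN differed by -1.45 ± 0.22 in early scar (limma adjusted p = 3.95e-05) and by -0.99 ± 0.22 in late scar (adjusted p = 0.00146). ACLY, which supplies acetyl-CoA to it, differed by -0.89 ± 0.16 in early scar (adjusted p = 0.000195) and by -0.83 ± 0.16 in late scar (adjusted p = 0.000397). The second desaturase SCD5 moved the other way. It was higher in early scar by 1.69 ± 0.27 (adjusted p = 7.55e-05) and in mid scar by 0.97 ± 0.28 (adjusted p = 0.0127), and its late minus early sham difference was -1.28 ± 0.27 (adjusted p = 0.00386). In all, 4 of the 8 genes including SCD fell in early, 4 in mid and 3 in late scar, and the medians were -0.22, -0.30 and -0.19. Among all features 14.8%, 11.7% and 13.4% fell.

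Of 16 measured genes of triglyceride and ester synthesis 5 fell and 2 rose at each phase, with medians of -0.12 in early, -0.22 in mid and -0.05 in late scar. Of all features 24.1% were called higher in early, 22.1% in mid and 26.3% in late scar. DGAT2 had the largest early difference of the list, and DGAT1, the other enzyme of the same step, had -0.12 in early, -0.27 in mid and 0.00 in late scar, with no call. DGAT1 was singled out after its values were seen. AGPAT3 and LPIN3, enzymes of earlier steps, differed by -0.89 ± 0.13 (limma adjusted p = 2.43e-05) and -0.86 ± 0.15 (adjusted p = 0.000144) in early scar. ACSL4, an acyl-CoA synthetase that prefers long polyunsaturated fatty acids, was higher in mid scar by 1.22 ± 0.22 (adjusted p = 0.000476) and in late scar by 1.13 ± 0.22 (adjusted p = 0.000557). Another synthetase, ACSL3, was lower in late scar, at -1.33 ± 0.20 (adjusted p = 5.38e-05). Between late and early sham scar, ACSL5 was also called higher (0.57 ± 0.14, adjusted p = 0.00844) and ACSL3 lower (-0.92 ± 0.20, adjusted p = 0.00516).

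Among 15 measured genes of the droplet coat and its lipases, 8 fell in early, 8 in mid and 7 in late scar, with medians of -0.91, -0.57 and -0.56. The share of all features that fell was 14.8%, 11.7% and 13.4%. ABHD5, the activator of the triglyceride lipase PNPLA2, differed by -2.46 ± 0.29 in early scar (limma adjusted p = 2.34e-06) and -1.36 ± 0.29 in late scar (adjusted p = 0.000936). It was the 1 gene of these 15 called higher in late than in early sham scar, at 1.20 ± 0.29 (adjusted p = 0.00787), against 9.65% of all features. PNPLA2 differed by -1.18 ± 0.19 in early scar (adjusted p = 0.000102) and by -0.94 ± 0.19 in late scar (adjusted p = 0.000812), but was well above background on only 2 of 8 early and 2 of 8 late arrays, against 4 of 4 control arrays. PLIN3, a coat protein of many tissues, had -0.09, 0.09 and 0.10 in early, mid and late scar with no call, and LIPA, the lysosomal lipase, was called higher at 1.13, 1.21 and 1.20. Both were singled out after their values were seen.

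Of 9 measured regulators of lipid genes, 4 fell in early, 2 in mid and 3 in late scar, and 0, 1 and 2 rose. Among all features 14.8%, 11.7% and 13.4% fell and 24.1%, 22.1% and 26.3% rose, so the rises do not exceed the general share. INSIG1, a target of the sterol-regulated factors that holds them in the endoplasmic reticulum, differed by -1.10 ± 0.17 in early scar (limma adjusted p = 4.69e-05) and by -0.83 ± 0.17 in late scar (adjusted p = 0.000708). PPARG, a nuclear receptor of fat cell and sebocyte differentiation, differed by -1.17 ± 0.40 in early scar (adjusted p = 0.0266) and was higher in late than in early sham scar by 1.18 ± 0.40 (adjusted p = 0.0448). NR1H3, a liver X receptor, was also higher there, by 0.79 ± 0.20 (adjusted p = 0.0123).

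**Figure D4:**
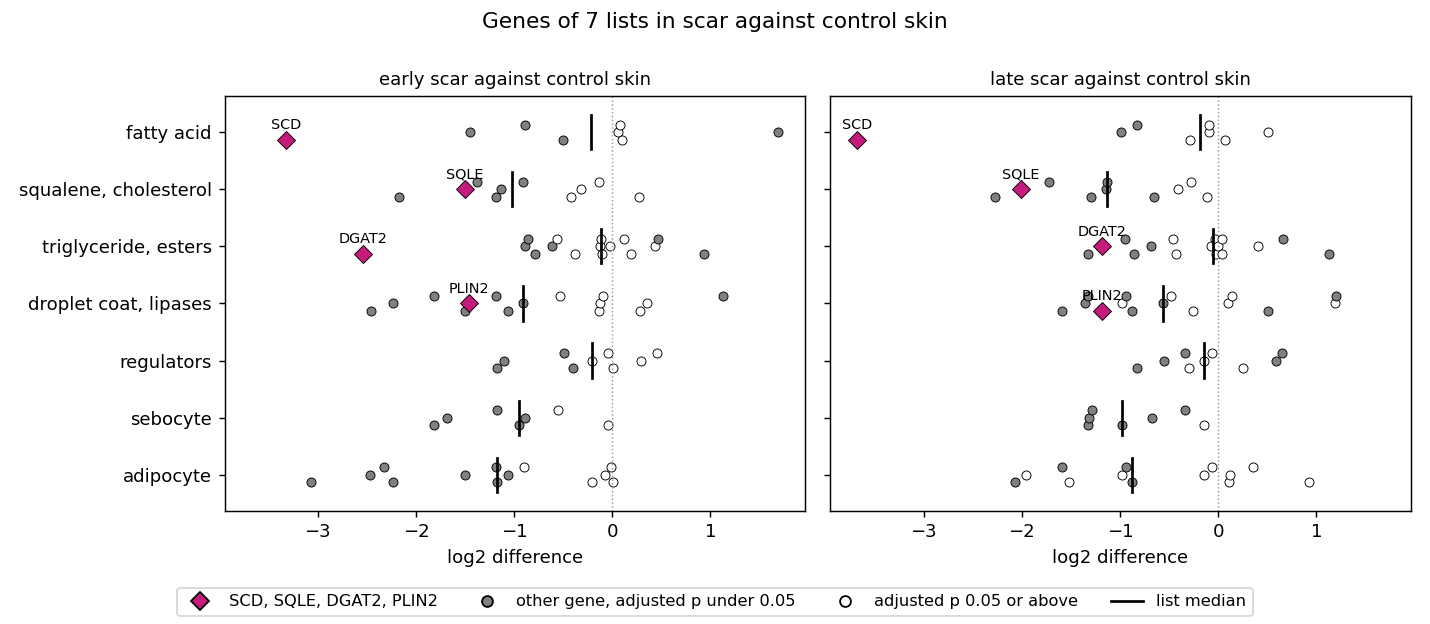
Log2 difference (horizontal axis) of each measured gene of 7 lists (vertical axis) in early and late scar against control skin, filled where the limma adjusted p is under 0.05, with the list median as a black line and the 4 genes as diamonds. SCD lies at -3.32 and -3.68, far below the median of its list at -0.22 and -0.19, and DGAT2 lies at -2.54 in early and -1.18 in late scar, against list medians of -0.12 and -0.05.

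Markers of several cell types moved with the 4 genes between scar and control skin. Among all features 14.8% fell in early, 11.7% in mid and 13.4% in late scar. Of 7 measured sebocyte markers 5 fell in early, 5 in mid and 6 in late scar, among them PRDM1 (-1.68 ± 0.26 in early scar, limma adjusted p = 3.98e-05). Their summed Cy5 signal was 2192 to 4824 in early, 1646 to 5410 in mid and 1395 to 13140 in late scar, against 8178 to 15964 in control skin. Here and below, such sums are background-corrected Cy5 on a linear scale. They are neither normalised between arrays nor set against the reference, so the brightness of an array enters them. SOX9 was well above background on 0 of 8 early arrays. Several of these markers also serve in other cells, and 3 of the 7 stand in other lists used here. Of 5 sweat and apocrine gland markers 5 fell at each phase, with a summed signal of 435 to 7620 in early, 402 to 5073 in mid and 400 to 566 in late scar, against 44619 to 191163 in control skin. In late scar FOXA1, PHEROC and SCGB1D1 were well above background on 0 of 8 arrays. The hair keratin KRT31, 1 of 2 measured hair follicle markers, was well above background on 0 of 8 early arrays. The other, LHX2, was so on 6 of 8 early arrays. It differed by -0.39 in early (limma adjusted p = 0.0561), -0.51 in mid (adjusted p = 0.0187) and -0.30 in late scar (adjusted p = 0.142).

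Of 6 epidermal keratinocyte markers 4 fell in early, 2 in mid and 3 in late scar, with a summed Cy5 signal of 696 to 44290, 8938 to 168991 and 3901 to 102578, against 74314 to 127180 in control skin. Macrophage markers rose in 6 of 9 cases in early, 5 in mid and 2 in late scar, with a summed signal of 7778 to 43125, 4733 to 69225 and 3036 to 39302, against 10313 to 14670 in control skin. Skeletal muscle markers rose in 2 of 19 cases in early, 1 in mid and 3 in late scar, a smaller share than the 24.1%, 22.1% and 26.3% of all features. Their summed signal was 25899 to 355891, 21557 to 536096 and 20630 to 2276586, against 28359 to 69553 in control skin. The part of these cell types in the falls of SCD, SQLE, DGAT2 and PLIN2 was not tested.

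Adipocyte markers moved with DGAT2 in particular samples. Of 13 measured, 8 fell in early, 6 in mid and 4 in late scar, and 1, PPARG, rose in late against early sham scar. Among all features 14.8%, 11.7% and 13.4% fell at these phases, and 9.65% rose in late against early sham scar. The summed signal of the markers was 4182 to 21038 in early, 7317 to 45345 in mid and 2695 to 119320 in late scar, against 51299 to 74294 in control skin. In late sham scar alone it was 2695 to 29173, with 1 marker well above background on no array. The triglyceride lipase gene PNPLA2 and the hormone-sensitive lipase LIPE, both adipocyte markers, fell at each phase, LIPE by 2.23 in early and 1.59 in late scar on the log2 scale. Over 28 arrays the mean of the 13 markers had a Pearson's r of 0.82 with DGAT2, 0.50 with PLIN2, 0.47 with SCD and 0.04 with SQLE, and within the 24 scar arrays 0.77, 0.37, 0.24 and -0.53. For the mean of the 7 sebocyte markers r was 0.80, 0.75, 0.79 and 0.45 over 28 arrays, in the same order of genes. Within scar it was 0.75, 0.40, 0.35 and -0.42. DGAT2 thus followed both marker lists to a like degree.

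On 3 scar arrays the marker mean exceeded that of every control array: mid pressure hyper (0.83 above the control mean), late sham hypo (0.53) and late pressure hyper (0.87), all of animal 49. On these arrays DGAT2 read 1.87, 1.79 and 1.47, SQLE -1.06, -1.28 and -1.47, and SCD 0.58, 0.01 and -0.11. They were thus the highest DGAT2 values in scar, and SCD and SQLE stayed below control skin on them. The summed signal, which is not normalised, ranked the mid and late sham arrays otherwise. It reached 45345 in mid and 29173 in late sham scar, below the lowest control sum of 51299. Leaving out these 3 arrays was an alternative added after the data were seen. DGAT2 was then 1.34 in late against early sham scar and -1.49 in late scar against control skin. Only the late sham hypo array enters the first of these comparisons. Since the arrays left out held the highest DGAT2 values in scar, lower late values follow from the choice. The part of adipocytes was not tested. Without the same arrays PLIN2 in late against early sham scar was 0.33. SCD and SQLE in late scar against control skin were then -3.73 and -1.87. With all arrays, epidermal markers also moved between late and early sham scar. KRT2 moved by 1.86 ± 0.65 (limma adjusted p = 0.0478) and DSG1 by 1.30 ± 0.39 (adjusted p = 0.0258), 2 of 6 measured. The summed signal of the epidermal markers was 3901 to 34694 in late sham scar, against 696 to 44290 in early scar, and their part in the DGAT2 result was not tested.

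**Figure D5:**
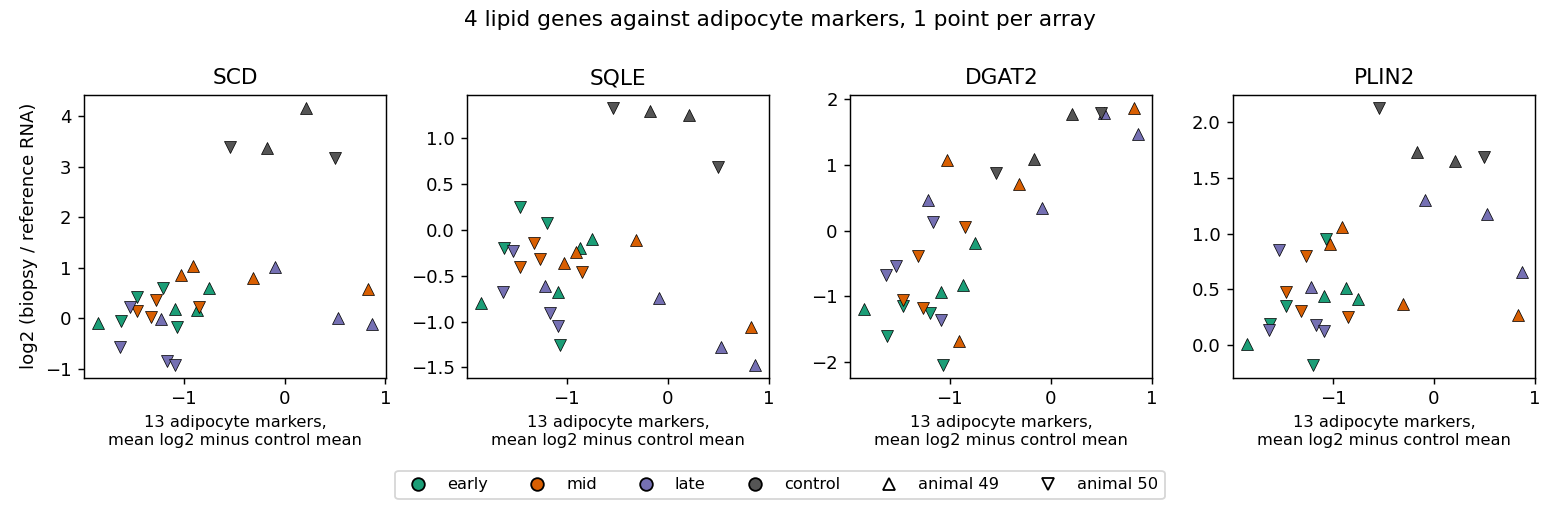
Log2 ratio of each of the 4 genes (vertical axis) against the mean of 13 adipocyte markers relative to control skin (horizontal axis, log2), with 1 point per array, coloured by phase and shaped by animal. DGAT2 rises with the markers (r = 0.82) and reaches 1.47 to 1.87 on the 3 scar arrays of highest marker mean, where SCD stays between -0.11 and 0.58.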

How the data were processed

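Biopsy RNA (Cy5) and universal pig reference RNA (Cy3) were hybridised to 28 Agilent arrays on 7 slides, per the labels. The deposited scanner files hold spot and local background medians as intensity on a linear scale, read with Agilent Feature Extraction 10.7.1.1 per the file headers, and the scanner program's processed signals as intensity with their log10 ratio. The authors' deposited value table is in log2 units, and agrees within 0.001 with log2 ratios made from the processed signals for 99.9% of probes on each array. Its centring and further steps are not given in the sources used here.

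Local backgrounds were capped at the 99th percentile of array and channel, subtracted by normexp (offset 50) and the log2 ratios normalised by loess within arrays, in limma 3.58.1 (R 4.3.3). Control spots had weight 0 and spots with outlier flags were missing. Probes with Cy5 well above background on at least 4 arrays were kept, 24513 of 43603, and the probe of highest mean Cy5 stood for each gene. Symbols came from matching accessions to RefSeq for 6924 probes of 3216 genes. No genome build is named, so no positions are given.

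A model of 11 group means with the animal as a block gave 20 comparisons over 18768 features. Animals are named in the labels, so the block pairs biopsies of the same pig. Deviations from group means of same-animal biopsies of different groups correlated with a median of 0.02, against -0.02 between animals. Each mid and late group held a single array of each animal, so its deviations were exact opposites. The contrast of these medians was thus largely fixed by construction and cannot show whether the block was needed. The fit was tested on simulated data. Named genes are the 4 members, up to 4 genes of lowest p of each list in scar against control skin, and the 5 features most like each member. Some genes that this rule selects are not reported here. Members and gene lists were chosen with earlier results of these data known. Alternatives were background, normalisation, filter, probe choice, blocks, slides, single animals and single arrays left out.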

Additional observations from a re-analysis of the deposited data

Results flagged for a closer look

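Of 24 sets of 4 or 8 arrays tested with Dixon's criterion, 3 held an array far from the others, and chance alone flags about 1 in 20. SQLE read 0.69 on control array R of animal 50, against 1.25 to 1.33 on the other control arrays. SQLE also read -1.06 on the mid pressure hyper array of animal 49, against -0.46 to -0.11 on the other mid arrays. This is 1 of the 3 scar arrays with the highest mean log2 ratio of adipocyte markers. PLIN2 read 2.13 on control array L of animal 50, against 1.65 to 1.73 on the other control arrays.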

How the results depend on the processing

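Each main result of a member was counted once under each alternative. Of these, 766 were unchanged, with the side of the threshold kept and, where called, the direction. A further 8 came to pass it, 12 ceased to pass it and 4 single-slide values moved by more than the spread. The cause was not tested for any of them. Of the members' other results 1551 kept their side, 7 came to pass and 8 ceased to. Signs of uncalled differences were not compared. In scar against control skin all 12 differences of the members stayed negative in every alternative run. Adjusted p values here are limma's. In early scar SQLE in animal 50 alone was -1.29 and was not called. Within slides that hold both early scar and control skin, slide 3 gave SCD -3.75 and SQLE -1.0, with no test. Slide 4 gave DGAT2 -1.93 and PLIN2 -1.96, also with no test. In mid scar SQLE in animal 50 alone was -1.34, not called, and DGAT2 with slide as a fixed block -1.15 (adjusted p = 0.115). In late scar DGAT2 was -1.18 (adjusted p = 0.0699) with no replicate block, which changed no other member's call. It was -0.84 (adjusted p = 0.174) with slide as a fixed block, -0.41 in animal 49 alone, where it was not called, and -0.68 (adjusted p = 0.0749) by its second probe. Leaving out single arrays gave -1.46 to -0.86 for it. The replicate block of animal and side gave 1.91 for DGAT2 in late against early sham scar (adjusted p = 0.00754), changed no call of the members, and gave 2550 called features there and 104 in mid against early sham scar, where the animal block gave 1208.

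In late against early sham scar DGAT2 was 0.98 (limma adjusted p = 0.306) with background not capped and 0.96 (adjusted p = 0.058) with median centring. It was 1.67 (adjusted p = 0.0788) with slide as a fixed block and 1.31, not called, in animal 50 alone. Median centring gave SCD -0.88 and SQLE -1.01. PLIN2 passed with scale normalisation (0.63, adjusted p = 0.0363). It was 0.89 in animal 49 alone and ran over 0.33 to 0.76 with single arrays left out. In animal 49 alone DGAT2 gave 0.78 in hyper against hypo scar and PLIN2 gave -0.66 in pressure against sham scar.

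Early scar gave 7293 called features, and 2838 in animal 50 alone. Mid scar gave 6339, and 4150 with slide as a fixed block, 1741 in animal 50 alone and 3904 to 6589 with single arrays left out, the lowest without control array L of animal 50. Late scar gave 7458, and 4903 in animal 49 and 4532 in animal 50 alone. Late against early sham scar gave 3735, and 11 with background not capped, 5698 with median centring, 1073 with slide as a fixed block, 1046 in animal 50 alone, 487 with early arrays of side L only, and 2148 to 3666 with single arrays left out, with 2148 and 2336 without the late sham hyper and hypo arrays of animal 50. Over the other alternatives the counts ran over 0 to 2503 in mid against early sham scar, 0 to 2775 in hyper against hypo late scar, and, in late against early sham scar, 0 to 1719 for hyper and 0 to 5818 for hypo biopsies. The share of calls that were higher also moved: 62.0% in early, 65.5% in mid and 66.3% in late scar against 47.5%, 29.0% and 19.9% with median centring, and 55.0% and 55.4% in late scar with the processed signals and the authors' table. In late against early sham scar it was 48.5%, against 31.8% and 31.7% with those tables, 18.2% with background not capped and 7.7% with median centring.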

Other observations

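Some genes of cell division differed between scar and control skin. Of 8 measured, 2 fell and 1 rose in early scar, 3 fell in mid scar and 5 fell in late scar, with median log2 differences of -0.31, -0.44 and -0.58, against 0.11, 0.10 and 0.10 for all features. Among all features 14.8% fell and 24.1% rose in early, 11.7% and 22.1% in mid and 13.4% and 26.3% in late scar. MCM3 and CDC20, among those that fell in late scar, were well above background on only 1 and 2 of 8 late arrays. TOP2A, the topoisomerase of dividing cells, differed by -0.81 ± 0.19 in early scar (limma adjusted p = 0.00184), by -0.92 ± 0.19 in mid scar (adjusted p = 0.000979) and by -1.39 ± 0.19 in late scar (adjusted p = 1.43e-05), where it was well above background on 4 of 8 arrays. Its late minus early sham difference was -0.54 ± 0.19 (adjusted p = 0.0475). The cyclin CCNB1 differed by -0.77 ± 0.26 in early scar (adjusted p = 0.0235) and by -1.0 ± 0.26 in late scar (adjusted p = 0.0045).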
